A study of Mus musculus with 12 samples.

Results

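Neurotrophic factors are secreted proteins that keep neurons alive and guide their fibres, and fat depots are supplied by sympathetic and sensory nerves that respond to them. The neurotrophins brain-derived neurotrophic factor (Bdnf) and neurotrophin 3 (Ntf3) signal through the receptor tyrosine kinases TrkB (Ntrk2) and TrkC (Ntrk3), and all neurotrophins also bind the low-affinity neurotrophin receptor (Ngfr), which is a known marker of Schwann cells and of some mesenchymal progenitors. Glial cell line-derived neurotrophic factor (Gdnf) binds the membrane-anchored co-receptor Gfra1, which passes the signal to the kinase Ret or to the adhesion molecule Ncam1. These 7 genes were picked by name, as ligands and receptors of both families, with earlier results of these data known. Counts and medians of the set beside those of all genes are therefore a description and no test. Of the 7, 6 had a probe set annotated to that gene alone, out of 22180 genes with such a probe set. Ntf3 was not analysed here. Where a gene had several probe sets of its own, its brightest by the 12-array mean was taken. That choice touched only Gfra1, whose chosen probe set had a mean of 4.79 and the other one of its own 3.11, and it gave each group the same weight.

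The 12 Affymetrix arrays measured RNA from C57BL/6 mice in 4 groups of 3 biological replicates: adipose progenitor preparations (AP) from perigonadal visceral fat (VAT) and from inguinal subcutaneous fat (SAT), and unfractionated adipose tissue (AT) from VAT and from SAT. All groups were freshly collected, and no agent or genetic change is given for any of them. AP were made from the dissociated stromal vascular fraction by bead removal of cells positive for blood lineage markers or for the endothelial marker CD31, so they are a depleted mixture and not a sorted cell type. Age and sex, and which animals gave each replicate, are not given, so the spread behind every p-value is that between these arrays and may be technical. Values are log2 intensities, and a group mean under 4.09, the value at the 40th percentile of all probe sets and arrays, was taken as near background. The plot of all arrays shows the 6 genes by group.

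**Figure D1:**
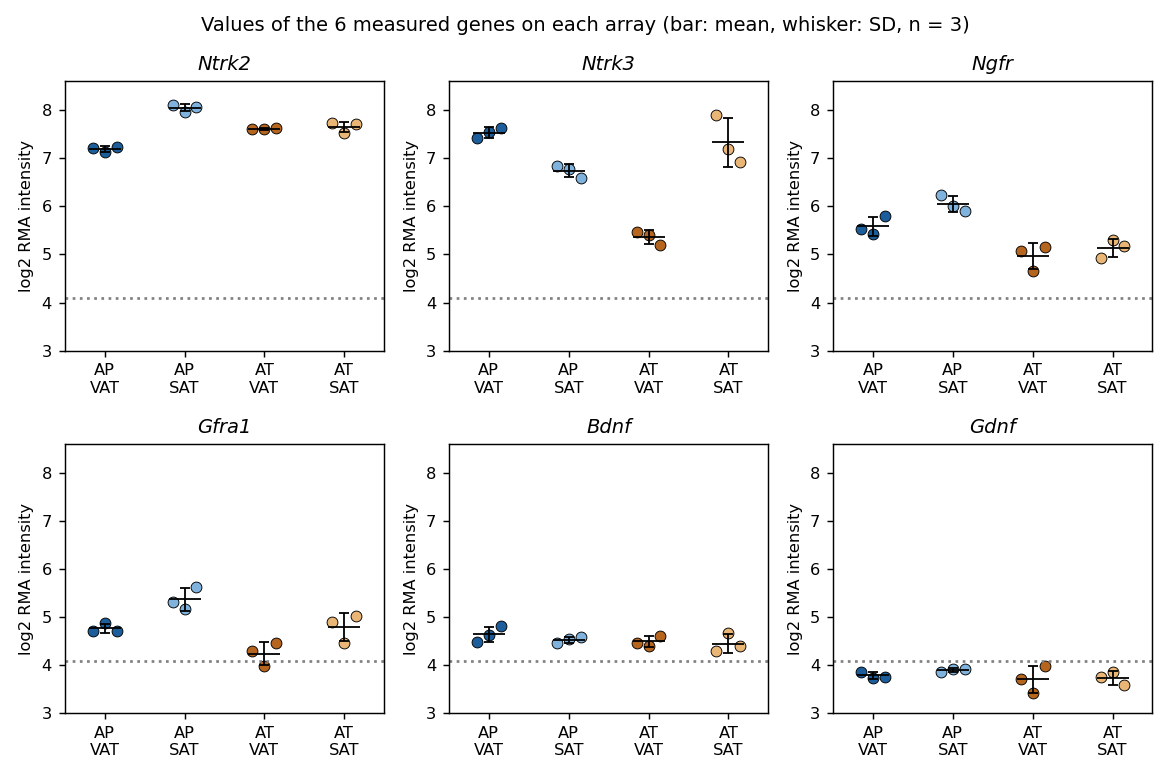
Values of the 6 measured genes on each array, on the log2 RMA intensity scale (y axis), for AP and AT from VAT and SAT (x axis). Points are arrays, bars are means, whiskers are SD (n = 3) and the dotted line marks 4.09. Ntrk3 ranged from 5.19 to 5.47 in AT from VAT, below its values in the other 3 groups, whereas all 12 Gdnf values were under the line.

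The arrays fell into their groups, with correlations across genes of 0.9869 to 0.9936 between arrays of 1 group and of 0.9104 to 0.9833 between arrays of different groups. The summed intensity of 11 adipocyte genes was 2210 to 2735 over the AP arrays and 26401 to 28462 over the AT arrays. Of 12 progenitor genes, 8 were called higher and 2 lower in AP of VAT, and 9 higher and 0 lower in SAT. Of 11 macrophage and leukocyte genes, 10 were called lower in AP of VAT and 9 in AP of SAT, with 0 higher. They summed to 346 to 386 over the AP arrays and 2167 to 3561 over the AT arrays. Of 14 endothelial genes, 12 were called lower and 1 higher in AP of each depot. Mast cell genes went the other way: of 8, 7 were called higher in AP of VAT and 6 in AP of SAT, and 0 lower. All AP samples and no AT sample went through dissociation, so effects of handling and of preparation cannot be told apart. The immediate early genes moved with that, with a sum of 27339 to 30224 in AP and of 1588 to 2085 in AT. Between AP and AT, 7239 genes were called in VAT and 7186 in SAT, which is 32.6% and 32.4% of all genes tested. Calls here mean a limma p below 0.05 after Benjamini-Hochberg adjustment over all 22180 genes. Scaling the arrays to 10 housekeeping genes instead put the median over all genes at 0.53 for AP against AT in VAT (0.033 as deposited), 0.17 for AP against AT in SAT (0.03), 0.36 for VAT against SAT in AP (0 as deposited) and 0.36 for the interaction (-0.0033). The share of calls that were higher then became 91.8% in VAT (48.4% as deposited), 63.4% in SAT (49.7%), 97.1% between the depots in AP (53.8%) and 92.9% for the interaction (46%). Between the depots in AT it was 62% (61.5%). The 10 housekeeping genes were not stable themselves: 3 were called higher and 3 lower for AP against AT in each depot. Their differences ran from -1.56 to 0.40 in VAT, with a median of -0.013, and from -1.35 to 0.81 in SAT. Between the depots in AP, 0 were called higher and 1 lower, from -0.43 to 0.087 with a median of -0.078. Each array was shifted by its own median over these genes, whose means ran from 6.62 (Tbp) to 11.38 (Rpl4). Such a shift can be larger than the differences of most of the genes. For AP against AT, values under this scaling also rest on genes that differed. Which scaling is nearer the truth was not tested.

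The receptors differed between the groups and neither measured ligand was called. Ngfr and Gfra1 were higher in AP than in AT of both depots, by 1.44-fold to 1.89-fold. Ntrk2 and Ntrk3 each went opposite ways in the 2 depots: Ntrk2 was 1.34-fold lower in AP of VAT and 1.32-fold higher in AP of SAT, and Ntrk3 was 4.50-fold higher in AP of VAT and 1.51-fold lower in AP of SAT. Of the 6 genes, 4 were called in VAT, 3 higher and 1 lower, and 4 in SAT, 3 higher and 1 lower. Over all genes, 15.8% were called higher and 16.8% lower in VAT, and 16.1% higher and 16.3% lower in SAT. The median difference of the 6 genes was 0.34 in VAT and 0.28 in SAT, where that of all genes was 0.033 and 0.03. Both comparisons use different arrays. In bulk samples a change in the number of cells of a type and a change in RNA per cell cannot be told apart.

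**Figure D2:**
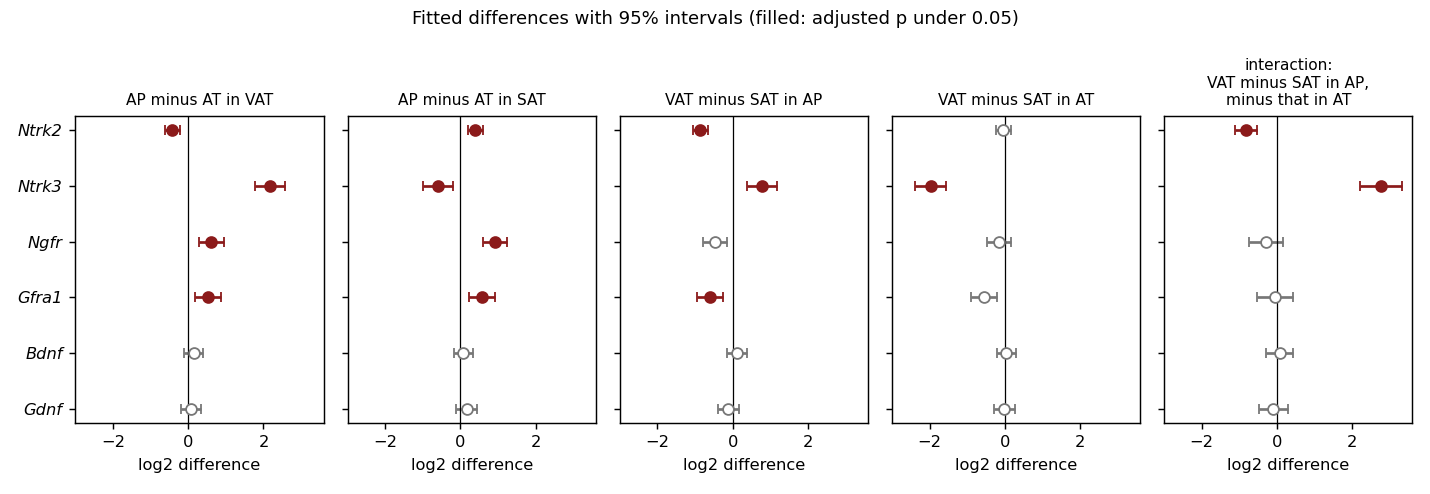
Fitted log2 differences (x axis) of the 6 genes (rows) in the 4 comparisons and the interaction, with 95% intervals from limma. Filled points passed an adjusted p of 0.05. Ntrk2 and Ntrk3 lay on opposite sides of 0 in the first panel, changed sides in the second, and were the 2 genes called in the interaction.

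Bdnf, the main ligand of TrkB, was measured close to the background limit. Its log2 values were 4.49, 4.62 and 4.81 in AP from VAT, against 4.47, 4.40 and 4.61 in AT from VAT. They were 4.46, 4.54 and 4.58 in AP from SAT, against 4.29, 4.67 and 4.39 in AT from SAT. The groups overlapped in both depots. The AP minus AT difference was 0.15 in VAT (95% interval -0.11 to 0.40, adjusted p = 0.393) and 0.077 in SAT (-0.18 to 0.33, adjusted p = 0.702). Between the depots it was 0.11 in AP (-0.14 to 0.37, adjusted p = 0.778) and 0.043 in AT (-0.21 to 0.30, adjusted p = 0.917). Scaled to housekeeping genes, Bdnf was at 0.64 in VAT (adjusted p = 0.00105) and at 0.47 between the depots in AP (adjusted p = 0.0242), where the medians of all genes were 0.53 and 0.36.

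Bdnf is known in neurons as a stimulus-responsive gene with several promoters, one of which carries a CRE-like element, TCACGTCA, bound by CREB family factors. The window that holds these letters is printed because Bdnf was not called in arrays where other stimulus-responsive genes were far higher: of the 20 immediate early genes listed, 19 were measured and 18 rose in each depot, with a median difference of 4.05 in VAT and 4 in SAT. RefSeq gives 7 Bdnf start sites in the table used, and 1 of the 7 windows of 250 bases upstream had the element on either strand, as did 0.35% of 32851 such windows of all genes. It lies in chr2:109692186-109692435 on the plus strand (GRCm38.p6), with its first base at position -38 counted from the start site, and is in capitals here.
Bdnf: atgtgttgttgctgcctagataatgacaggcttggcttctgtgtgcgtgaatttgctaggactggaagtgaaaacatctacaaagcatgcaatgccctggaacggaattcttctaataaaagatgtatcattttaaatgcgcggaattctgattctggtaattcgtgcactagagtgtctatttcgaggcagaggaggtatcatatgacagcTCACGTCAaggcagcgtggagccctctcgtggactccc
The probe set gives 1 value for Bdnf, so use of this start site was not measured here.

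Gdnf, the ligand of Gfra1, was near background everywhere. Its values were 3.87, 3.74 and 3.76 in AP from VAT, against 3.72, 3.43 and 3.99 in AT from VAT. In SAT they were 3.85, 3.93 and 3.92 in AP, against 3.75, 3.86 and 3.58 in AT. All 4 group means were under 4.09, so no fold is given. The adjusted p was 0.376 for AP against AT in SAT, 0.700 in VAT, 0.808 between the depots in AP and 0.975 in AT. Scaled to housekeeping genes, Gdnf was at 0.57 for AP against AT in VAT (adjusted p = 0.00634), where the median of all genes was 0.53.

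Ntrk2, which encodes TrkB, differed between the depots in AP. Its log2 values were 7.21, 7.12 and 7.23 in AP from VAT, against 8.10, 7.96 and 8.07 in AP from SAT. The highest VAT array lay 0.73 below the lowest SAT array. The difference was -0.86 (SE 0.096), or 1.81-fold lower in VAT, with an adjusted p of 3.30e-05 in limma. In whole tissue the values were 7.60, 7.60 and 7.63 in AT from VAT, against 7.72, 7.52 and 7.70 in AT from SAT. These overlapped, with a difference of -0.037 (95% interval -0.24 to 0.17, adjusted p = 0.910).

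Set against AT, AP from VAT lay below and AP from SAT above. In VAT no AP array reached an AT array, and Ntrk2 was lower by -0.42 (SE 0.096, adjusted p = 0.00277). In SAT every AP array was above every AT array, and Ntrk2 was higher by 0.40 (SE 0.096, adjusted p = 0.00412). Groups without overlap were common, at 40.9% of all genes in VAT and 44.6% in SAT. The order of the group means was AP from VAT, AT from VAT, AT from SAT and AP from SAT, from low to high, and the middle pair did not differ beyond its spread. The fall in VAT depended on scaling: with arrays shifted to housekeeping genes the difference was 0.073 (adjusted p = 0.622), where the median of all genes was 0.53.

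Ntrk3, which encodes TrkC and is known in neurons and in vascular smooth muscle, had the widest span of group means among the 6 genes, 2.17. In VAT its values were 7.41, 7.54 and 7.63 in AP, against 5.47, 5.41 and 5.19 in AT. The groups were far apart, with a difference of 2.17 (SE 0.188, 4.50-fold, adjusted p = 2.70e-07). In SAT they were 6.84, 6.78 and 6.59 in AP, against 7.90, 7.18 and 6.91 in AT. Here AT had a wide spread (SD 0.512 in AT and 0.131 in AP), and the difference of -0.59 (SE 0.188, adjusted p = 0.0234) leaned on single arrays. It was -0.52 (adjusted p = 0.0896) on leaving out AP replicate 3, and -0.31 (adjusted p = 0.116) on leaving out AT replicate 1. It was -0.46 (adjusted p = 0.115) when scaled to housekeeping genes and had an adjusted p of 0.0638 in a fit of the SAT arrays alone.

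The depot difference of Ntrk3 also had opposite signs. In AT it was lower in VAT by -1.97 (SE 0.188, 3.93-fold, adjusted p = 1.13e-05), with no overlap. In AP it was higher in VAT by 0.79 (SE 0.188, 1.73-fold, adjusted p = 0.0191), again with no overlap. The call in AP was lost on leaving out single arrays: replicate 2 (adjusted p = 0.0735) or 3 (0.0671) of the VAT progenitors, or replicate 2 (0.0545) or 3 (0.0889) of the SAT progenitors. The order of the group means was AT from VAT, AP from SAT, AT from SAT and AP from VAT, from low to high. The last pair overlapped, since the AT from SAT values ran from 6.91 to 7.90 around those of AP from VAT.

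Ngfr, the receptor shared by all neurotrophins, was higher in AP of both depots. Its values were 5.53, 5.42 and 5.80 in AP from VAT, against 5.08, 4.66 and 5.16 in AT from VAT. In SAT they were 6.23, 6.00 and 5.91 in AP, against 4.93, 5.29 and 5.17 in AT. No AP array overlapped with AT of its depot. The difference was 0.62 in VAT (SE 0.15, 1.53-fold, adjusted p = 0.00476) and 0.92 in SAT (SE 0.15, 1.89-fold, adjusted p = 0.000165). Scaled to housekeeping genes the VAT value was 1.11, where the median of all genes was 0.53. Between the depots the AP arrays did not overlap, but the difference of -0.46 (SE 0.15, adjusted p = 0.101) did not pass, and it was -0.10 (adjusted p = 0.578) when scaled to housekeeping genes. In AT it was -0.16 (95% interval -0.48 to 0.16, adjusted p = 0.683).

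Gfra1, the GDNF co-receptor, was also higher in AP of both depots. Its values were 4.72, 4.87 and 4.71 in AP from VAT, against 4.29, 3.98 and 4.46 in AT from VAT. In SAT they were 5.32, 5.16 and 5.63 in AP, against 4.89, 4.46 and 5.02 in AT. AP and AT did not overlap within a depot, although AT from VAT was close to background. The difference was 0.52 in VAT (SE 0.162, 1.44-fold, adjusted p = 0.0209) and 0.58 in SAT (SE 0.162, 1.49-fold, adjusted p = 0.0110). Single arrays decided both calls: in VAT the adjusted p was 0.0784 without replicate 2 of AP and 0.106 without replicate 2 of AT, and in SAT it was 0.0655 without replicate 3 of AP and 0.0636 without replicate 2 of AT.

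Gfra1 was lower in VAT than in SAT within AP, by -0.60 (SE 0.162, 1.52-fold, adjusted p = 0.0394) with no overlap. That call was lost, with an adjusted p of 0.0549 to 0.1869, on leaving out any single VAT progenitor array, SAT progenitor replicate 1 or 3, or VAT tissue replicate 1. Scaled to housekeeping genes it was -0.24 (adjusted p = 0.281), where the median of all genes was 0.36. In AT the difference was of like size, -0.55 (SE 0.162, adjusted p = 0.0744), and was called without replicate 2 of AT from SAT (adjusted p = 0.0204). The other probe set of Gfra1 alone was under the background limit on every array, at 2.86 to 3.41. With the mean of both probe sets, the difference between AP and AT was 0.24 in VAT (adjusted p = 0.168) and 0.34 in SAT (adjusted p = 0.0492), and that between the depots -0.41 in AP (adjusted p = 0.0806) and -0.31 in AT (adjusted p = 0.237). Scaled to housekeeping genes, the AP minus AT difference in VAT was 1.02. A probe set annotated to both Gfra1 and the predicted gene Gm10007 had group means of 6.20 in AP from VAT, 6.09 in AP from SAT, 6.00 in AT from VAT and 6.15 in AT from SAT, a narrower span that was not tested.

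Within AP, 3 of the 6 genes were called between the depots, Ntrk3 higher in VAT and Ntrk2 and Gfra1 lower, where 5.64% of all genes were called, 3.03% higher and 2.6% lower. In AT, 1 of the 6 was called, Ntrk3, lower in VAT, against 4.55% of all genes, 2.8% higher and 1.75% lower. Groups without overlap were seen for 4 of the 6 in AP (20.4% of all genes) and for 1 of the 6 in AT (18.1%). In AP the receptors Ntrk2, Ngfr and Gfra1 shared a direction, with group means lower in VAT than in SAT, although Ngfr did not pass. Scaled to housekeeping genes the differences were smaller, at -0.50 for Ntrk2 (adjusted p = 0.0160), -0.10 for Ngfr and -0.24 for Gfra1, where the median of all genes was 0.36. As deposited, the housekeeping genes had a median difference of -0.078 there, so this shift is larger than their typical difference. Marker lists went both ways between the depots in AP. Mesothelial genes summed to 5853 to 7923 in AP from VAT, against 655 to 791 in AP from SAT, with 12 of 12 called higher. Pericyte and smooth muscle genes summed to 10015 to 11223, against 8122 to 8501, with 4 of 12 called higher and 0 lower. The lists of progenitors and mast cells were lower in VAT. Progenitor genes summed to 7870 to 9277 in AP from VAT, against 11377 to 12274 in AP from SAT, with 3 of 12 called lower in VAT (Dpp4, Pi16 and Thy1) and 0 higher. Mast cell genes summed to 971 to 1369 in AP from VAT, against 2319 to 2607 in AP from SAT, with 4 of 8 called lower and 0 higher. The part of these cell types in the differences was not tested. The windows of Ntrk2, Ngfr and Gfra1 upstream of a listed start site are printed because these receptors shared a direction. Each has 1 listed start site in the RefSeq table (GRCm38.p6). The windows are chr13:58806319-58806568 on the plus strand for Ntrk2, chr11:95587699-95587948 on the minus strand for Ngfr and chr19:58455399-58455648 on the minus strand for Gfra1. The annotated span of Gfra1 ends at 58455946, so its whole window lies within the gene. That of Ntrk2 starts at 58806472, so the last part of its window lies within the gene. The letters before the outer end of Gfra1 were not searched. All are 250 bases, read toward the start site, with capitals for any of 6 motifs on either strand.
Ntrk2: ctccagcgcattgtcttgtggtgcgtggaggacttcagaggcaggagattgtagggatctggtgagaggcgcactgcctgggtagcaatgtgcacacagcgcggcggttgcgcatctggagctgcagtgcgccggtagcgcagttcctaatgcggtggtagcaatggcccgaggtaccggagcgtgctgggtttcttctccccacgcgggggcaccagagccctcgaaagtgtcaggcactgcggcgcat
Ngfr: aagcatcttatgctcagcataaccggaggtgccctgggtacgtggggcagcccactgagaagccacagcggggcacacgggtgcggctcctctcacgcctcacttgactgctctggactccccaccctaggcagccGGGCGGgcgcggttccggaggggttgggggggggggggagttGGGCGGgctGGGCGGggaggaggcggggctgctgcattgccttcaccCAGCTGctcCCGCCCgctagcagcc
Gfra1: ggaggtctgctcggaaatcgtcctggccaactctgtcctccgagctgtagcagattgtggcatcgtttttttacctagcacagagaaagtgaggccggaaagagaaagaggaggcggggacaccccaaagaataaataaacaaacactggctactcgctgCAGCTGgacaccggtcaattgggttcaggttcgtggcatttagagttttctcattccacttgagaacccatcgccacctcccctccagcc
The motifs were the CRE (TGACGTCA), the CRE-like element (TCACGTCA), the site of the transcription factor AP-1 (TGANTCA), an E-box (CAGCTG), the GC box (GGGCGG) and a T-box site (GGTGTGA), which share no letters with each other in these windows. The Ngfr window held 4 GC boxes, which occur in 32.7% of all windows, and 1 E-box, which occurs in 13% of them. The Gfra1 window held 1 E-box, and the Ntrk2 window held none of the 6. The GC content was 62.8% for Ntrk2, 70.4% for Ngfr and 52.4% for Gfra1, where the median of all windows was 52.4%. A match is a description of the letters and no measure of binding.

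Ntrk2 and Ntrk3 were the members whose depot difference differed between AP and AT. The interaction, the VAT minus SAT difference in AP minus that in AT, was 2.76 for Ntrk3 (SE 0.266, adjusted p = 6.90e-05) and -0.82 for Ntrk2 (SE 0.135, adjusted p = 0.00553). Over all genes, 2.15% were called for it, 0.987% higher and 1.16% lower. Both were called without each single array in turn. When scaled to housekeeping genes, Ntrk2 was at -0.46 (adjusted p = 0.127) while Ntrk3 was at 3.12 (adjusted p = 1.94e-05), the median of all genes being 0.36. For Ngfr the interaction was -0.30 (95% interval -0.75 to 0.15, adjusted p = 0.611) and for Gfra1 -0.057 (-0.54 to 0.43, adjusted p = 0.953).

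**Figure D3:**
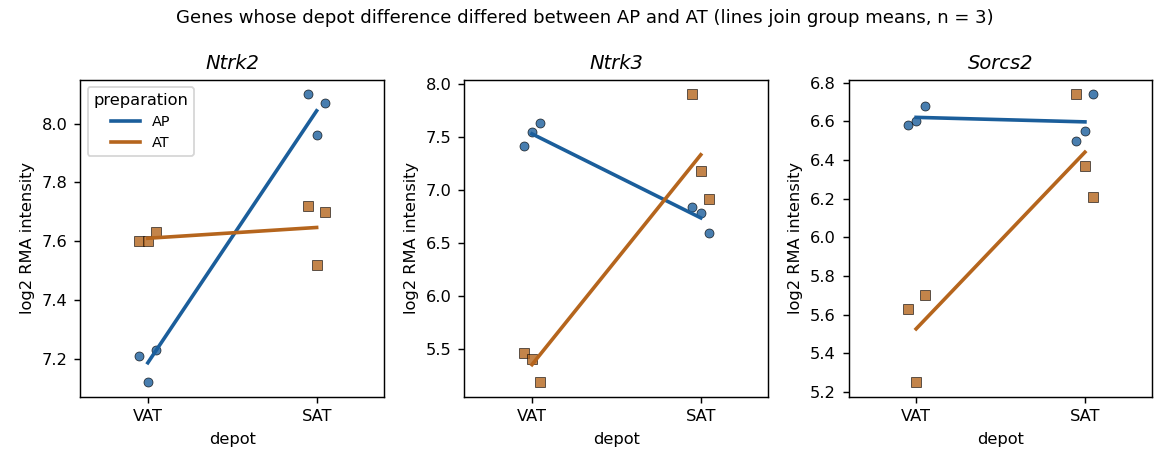
Log2 RMA intensity (y axis) of Ntrk2, Ntrk3 and Sorcs2 in VAT and SAT (x axis), for AP (circles) and AT (squares). Points are arrays and lines join the means of 3. The lines of Ntrk3 cross, with AP above AT in VAT and below it in SAT, and those of Ntrk2 cross the other way.

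Among the other neurotrophin receptors, calls were made for 2 sorting receptors of the VPS10 family, Sort1 and Sorcs2. Of 13 genes listed as neurotrophins and their receptors, 10 were measured, of which 3 were called higher and 2 lower in VAT and 2 higher and 2 lower in SAT for AP against AT. Their median difference was 0.14 in VAT and 0.10 in SAT. Counts of this list and of those below stand beside 32.6% of all genes called in VAT and 32.4% in SAT. Sortilin (Sort1), which binds pro-neurotrophins and in adipocytes is part of glucose transporter vesicles, averaged 8.42 ± 0.067 in AP and 10.73 ± 0.036 in AT from VAT (SD, n = 3 each). Its difference was -2.31 in VAT (SE 0.095, adjusted p = 7.04e-11) and -1.89 in SAT (SE 0.095, adjusted p = 6.34e-10). With the mean over its probe sets it was -1.26 in VAT and -1.295 in SAT, still called in both. Sort1 fell together with the adipocyte genes, of which 10 of 11 were called lower in VAT and 11 of 11 in SAT. The part of adipocyte content in the Sort1 result was not tested.

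Sorcs2, a receptor of the same family that pairs with Ngfr to bind pro-BDNF, was high and low in the same groups as Ntrk3 in VAT. It averaged 6.62 ± 0.053 in AP from VAT and 5.53 ± 0.242 in AT from VAT, a difference of 1.09 (SE 0.144, adjusted p = 2.26e-05). In AT it was lower in VAT by -0.91 (SE 0.144, adjusted p = 0.00126). Elsewhere it did not follow Ntrk3: AP against AT in SAT was 0.16 (adjusted p = 0.478), where Ntrk3 was at -0.59. Between the depots in AP, Sorcs2 was at 0.023 (adjusted p = 0.976) and Ntrk3 at 0.79. Its interaction was 0.94 (adjusted p = 0.0267), but 7 single arrays, among them all 3 of AP from VAT, each ended that call when left out (adjusted p = 0.0521 to 0.0776). By the root mean square difference over the 12 centred arrays, Sorcs2 was the second most like gene to Ntrk3 (0.51), after Rasl12 (0.45) and before the matrix protein periostin, Postn (0.52). In SAT the means of Rasl12 (6.64 in AP and 6.51 in AT) and Postn (10.04 and 9.67) were also higher in AP, unlike Ntrk3. The nearest genes to Ngfr were Sarm1 (0.13), which encodes a driver of axon degeneration, Fbxl16 (0.14) and Cdk15 (0.14). Those nearest to Gfra1 were Epb41l4b (0.15), Fa2h (0.18), a fatty acid hydroxylase of myelin lipids, and the matrix protein Thbs4 (0.19). Several of these genes were dim in AT from VAT: Epb41l4b (3.92) and Thbs4 (4.04) were under 4.09, and Sarm1 (4.16) and Cdk15 (4.12) were close to it. Fbxl16 (4.66) and Fa2h (5.07) were further above. Whether the likeness has a shared basis was not tested.

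In the GDNF family, 11 of 12 listed genes were measured, and 4 were called higher in AP of each depot, with 1 lower in VAT and 0 lower in SAT. The median was 0.26 in VAT and 0.31 in SAT. Over all genes, 15.8% were called higher and 16.8% lower in VAT, and 16.1% higher and 16.3% lower in SAT. The kinase Ret averaged 6.22 ± 0.318 in AP and 5.80 ± 0.057 in AT from VAT, a difference of 0.42 (SE 0.133, adjusted p = 0.0243), and that call was lost on leaving out AP replicate 1 or AT replicate 1 or 2 (adjusted p = 0.0540 to 0.136). In SAT Ret averaged 6.46 ± 0.069 in AP and 5.71 ± 0.075 in AT, a difference of 0.75 (SE 0.133, adjusted p = 0.000324). Ncam1 was higher by 0.93 in VAT (SE 0.22, adjusted p = 0.00373; 0.62 without replicate 2 of AT) and by 0.60 in SAT (adjusted p = 0.0488). The artemin co-receptor Gfra3 was higher in VAT by 0.67 (SE 0.173, adjusted p = 0.00722). The remaining calls of this list, Artn higher in SAT (0.41, adjusted p = 0.0330) and Gfra2 lower in VAT (-0.63, adjusted p = 0.0493), were lost without 5 and 10 single arrays, with an adjusted p of up to 0.123 and 0.136, and the Ncam1 call in SAT was lost without 8 (up to 0.201). Between the depots Gfra1 was the 1 gene of this list called in AP, and 0 were called in AT, where Gfra1 had an unadjusted p of 0.00418.

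**Figure D4:**
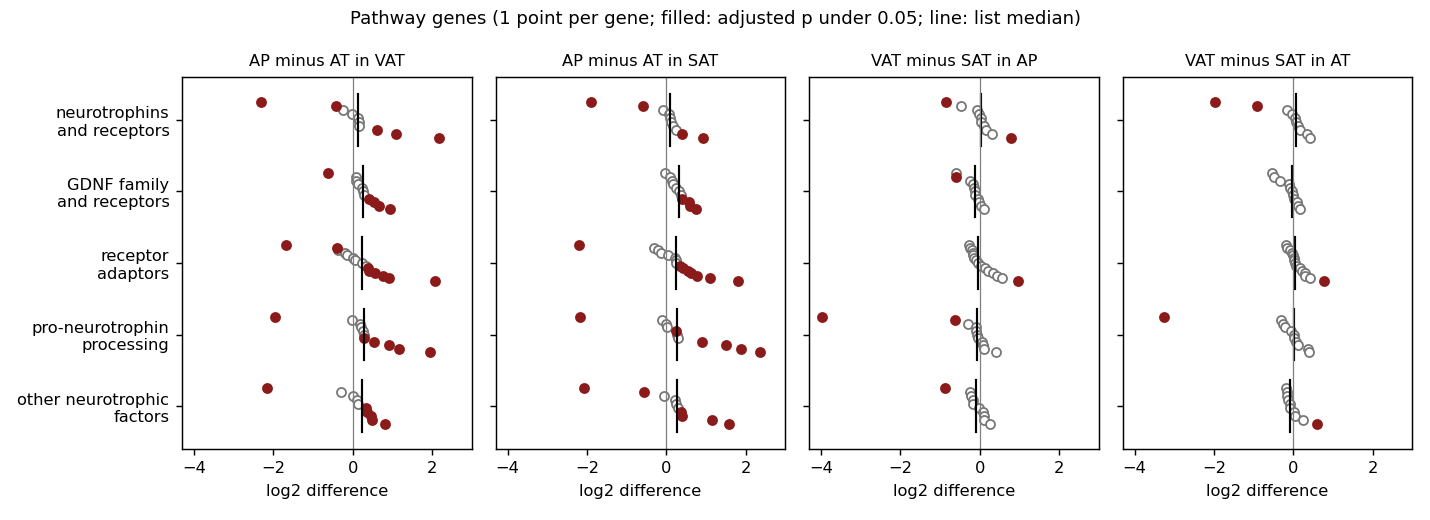
Log2 differences (x axis) of the measured genes of 5 pathway lists (rows) in the 4 comparisons. Each point is a gene, filled points passed an adjusted p of 0.05 and vertical lines are list medians. List medians lay between 0.10 and 0.31 for AP against AT and between -0.12 and 0.057 for VAT against SAT.

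Receptor adaptors carry the signal of these receptors into the cell. Of 15 measured, 6 were called higher and 2 lower in AP of VAT (median 0.24), and 7 higher and 1 lower in SAT (median 0.25). The shares called over all genes were 32.6% in VAT and 32.4% in SAT. Bex3, a protein that binds Ngfr, was higher by 2.08 in VAT (SE 0.206, adjusted p = 1.14e-06) and by 1.803 in SAT (SE 0.206, adjusted p = 4.58e-06). The adaptors Shc2 (0.91 in VAT and 1.11 in SAT) and Gab1 (0.77 in each) also rose. Sh2b2, an adaptor of the insulin receptor as well as of Trk kinases, fell by 1.68 in VAT and fell by 2.21 in SAT. Plcg1, a phospholipase that docks on Trk kinases, was lower in VAT (-0.39, adjusted p = 0.0153). The sign of Plcg1 turned to 0.11 when scaled to housekeeping genes, and its call was lost on leaving out AP replicate 1 or 2 or AT replicate 2 (adjusted p = 0.0580 to 0.0757). Between the depots Gab2 was higher in VAT, by 0.97 in AP (adjusted p = 3.69e-05) and by 0.78 in AT (adjusted p = 0.000473).

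Among proteins that cleave or control the cleavage of pro-neurotrophins, 11 were measured and 5 were called higher and 1 lower in AP of each depot (median 0.28 in VAT and 0.27 in SAT). The shares called over all genes were 32.6% and 32.4%. Tissue plasminogen activator (Plat), which yields plasmin, was higher by 1.94 in VAT (SE 0.189) and by 2.36 in SAT (SE 0.189). The metalloproteinase Mmp3 was higher by 1.17 and Mmp9 lower by -1.96 in VAT, and in SAT they were at 1.89 and -2.17. The proprotein convertase Pcsk5 was higher by 0.92 in VAT and by 0.91 in SAT, and Pcsk6 by 0.53 in VAT and by 1.52 in SAT. Pcsk6 was also lower in VAT than in SAT within AP (-0.63, adjusted p = 0.0161) and called for the interaction (-0.99, adjusted p = 0.0206). These calls of Pcsk6 were lost without 4 and 5 single arrays, and under housekeeping scaling they were at -0.27 (adjusted p = 0.112) and -0.63 (adjusted p = 0.0719). Mmp3 also differed between the depots, by -3.98 in AP (adjusted p = 3.54e-08) and by -3.27 in AT (adjusted p = 6.06e-07). Of 10 other secreted factors with neurotrophic activity, 5 were higher and 1 lower in VAT (median 0.23), and 4 higher and 2 lower in SAT (median 0.27). Meteorin-like (Metrnl) was higher by 0.81 in VAT and by 1.59 in SAT, and was lower in VAT than in SAT within AP (-0.87, adjusted p = 0.000350). Neuregulin 4 (Nrg4), a factor released by adipocytes, fell by 2.15 in VAT and fell by 2.09 in SAT. Nenf was higher in AP of SAT by 1.14 and of VAT by 0.36 (adjusted p = 0.0255), and higher in VAT than in SAT within AT by 0.60 (adjusted p = 0.00522). The interactions of Nenf (-0.79, adjusted p = 0.0193) and Metrnl (-0.78, adjusted p = 0.0329) were lost without 3 and 8 single arrays. Manf was called higher in AP of both depots, at 0.39 in SAT and 0.34 in VAT, as was Mdk, at 0.46 in VAT and 0.38 in SAT. Cdnf was called in SAT alone (-0.56, against -0.30 in VAT) and Prok2 in VAT alone (0.48, against 0.25 in SAT). The calls of Cdnf and Prok2 were lost without 1 and 4 single arrays.

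Markers of nerve-associated and mural cells were read beside these results. Of 16 Schwann cell genes, 13 were measured, and 3 were called higher in AP of each depot, with 0 lower in VAT and 1 lower in SAT. The 3 were Pmp22, Sox10 and Egr2, which is an immediate early gene too, and the 1 lower in SAT was Cdh19 (-1.11). Between the depots 3 were lower in VAT within AP and 4 within AT, and 0 were called higher. Over all genes, 2.6% were called lower in VAT within AP and 1.75% within AT. The members did not all run one way: Scn7a, the sodium channel gene with the highest values of the list, was at 10.19 in AP from VAT, against 9.81 in AP from SAT, and at 10.06 in AT from VAT, against 9.68 in AT from SAT, without overlap but not called (adjusted p = 0.0555 in AP and 0.0634 in AT). Fabp7 was at 4.76 in AP from VAT, against 4.42 in AP from SAT, and was not called either. Pmp22 was at 9.78 in AP from VAT, against 9.89 in AP from SAT. Cdh19, Fabp7, Sox10 and Mbp are given after their values were seen. Sox10, the factor that defines the lineage, was at 4.97 in AP and 4.48 in AT from VAT, and at 5.30 in AP and 4.86 in AT from SAT. Myelin basic protein (Mbp) was at 5.94 in AP from VAT, against 6.79 in AP from SAT, and at 5.91 in AT from VAT, against 6.73 in AT from SAT. The summed intensity of the list was 2511 to 2721 in AP from VAT, 2468 to 2565 in AP from SAT, 1871 to 1904 in AT from VAT and 1600 to 2256 in AT from SAT. S100b was under 4.09 in 3 of the 4 groups and Cdh19 in 2.

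Of 13 neuronal genes, 5 were under 4.09 in every group (Nefl, Nefm, Snap25, Elavl4 and Gap43), and the sum ran from 418 to 460 in AP from VAT, 305 to 334 in AP from SAT, 322 to 356 in AT from VAT and 276 to 305 in AT from SAT. Between the depots the median difference of the 13 was 0.063 in AP and -0.067 in AT, so the higher sums in VAT were not shared by most of the list. Of the 13, 1 was called in AP and 1 in AT, Stmn2 in both, named after its values were seen. Stmn2 was at 7.09 in AP from VAT, against 4.64 in AP from SAT, and at 6.65 in AT from VAT, against 5.20 in AT from SAT. For AP against AT, 4 neuronal genes were called higher and 0 lower in VAT, and 1 higher and 1 lower in SAT. Over all genes the shares called were 32.6% in VAT and 32.4% in SAT, and 5.64% and 4.55% between the depots in AP and AT. All 12 pericyte and smooth muscle genes were above the limit, and 11 rose and 1 fell in AP of VAT, with 9 higher and 1 lower in SAT. Their sum was 10015 to 11223 in AP from VAT, 8122 to 8501 in AP from SAT, 2682 to 3412 in AT from VAT and 2727 to 2921 in AT from SAT. Mesothelial genes, 12 of 12 of which were higher in VAT in both preparations, summed to 5853 to 7923 in AP from VAT, 655 to 791 in AP from SAT, 3910 to 4914 in AT from VAT and 493 to 571 in AT from SAT. Progenitor, pericyte and smooth muscle, and immediate early genes all had lower sums in AT than in AP of each depot. So did mast cell genes, with sums of 369 to 434 in AT from VAT and 667 to 1455 in AT from SAT. By the means over all arrays, Cpa3, Tpsb2 and Mcpt4 were the brightest of the 8, and each was called higher in AP of both depots and lower in VAT in both preparations. Fcer1a and Ms4a2 were under 4.09 in 3 of the 4 groups. The part of these cell types in the differences of Ntrk2, Ntrk3, Ngfr and Gfra1 was not tested.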

How the data were processed

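The authors deposited log2 intensities per probe set, summarised by RMA (robust multi-array average) with version 1.3.0.187 of the Affymetrix Expression Console, per the submitters' processing notes. The base of the log follows from the method and the range of 1.69 to 13.48. The library file and level of summary are not given in the sources used here, and array scans were not used here. RMA makes arrays alike in distribution, so a shift of most genes in 1 group would be hidden.

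Of 41345 probe sets, 23521 had 1 annotated gene, 1814 several and 16010 none listed. The fit used limma 3.58.1 (R 4.3.3) on all 12 arrays, 1 mean per group (8 residual and 6.84 prior degrees of freedom), 2-sided, with Benjamini-Hochberg adjustment over 22180 genes. SE and 95% intervals are those of the moderated fit. Precision is limited by the number of arrays. Which animals gave each replicate is not given, so the replicate numbers were not used as pairs in the main fit. The members and lists were chosen with earlier results of these data known. Pathway genes were named by rule, up to 3 called in each direction per list and comparison, and genes most like a member by the smallest root mean square difference among members spanning at least 1. The fit was tested on simulated data. Alternatives were a replicate block, trend and robust options, quantile normalization, a housekeeping shift (13 genes listed, 10 measured), a filter on dim genes, the mean over probe sets, the compared groups alone and each array left out. Upstream windows came from RefSeq. Figures used Python 3.11.15.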

Additional observations from a re-analysis of the deposited data

Results flagged for a closer look

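Ntrk3 and Ntrk2 had depot differences that differed between the preparations by the interaction test in limma. For Ntrk3 the VAT minus SAT difference was 0.79 in AP and -1.97 in AT, an interaction of 2.76 (adjusted p = 6.90e-05). For Ntrk2 it was -0.86 in AP and -0.037 in AT, an interaction of -0.82 (adjusted p = 0.00553). All 3 AP arrays from VAT lay on opposite sides of their AT arrays for the 2 genes, above for Ntrk3 and below for Ntrk2.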

How the results depend on the processing

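Over the 6 measured members and 5 comparisons, 188 of 199 values under settings other than leaving out an array kept their call. With 1 array left out, 343 of 360 values did. A difference called in neither fit counted as kept even where its sign turned. That of Gdnf between the depots in AP, for example, was -0.11 as deposited and reached 0.25 in another setting. Under the shift to housekeeping genes, the difference of Ntrk2 between AP and AT in VAT turned to 0.073 and that of Plcg1 to 0.11, the median of all genes being 0.53. Under the same shift 1 member was called for the interaction in place of 2, and the genes called over the whole table were 17121 for AP against AT in VAT (7239 as deposited), 8294 for VAT against SAT in AP (1250) and 1104 for the interaction (476). With the depot arrays of AT alone, 601 genes were called between its depots, against 1009 in the fit of all arrays. The cause of these changes was not tested. With 1 array left out, the members called ranged from 2 to 4 for AP against AT in SAT, 1 to 3 for the depots in AP and 1 to 2 for the depots in AT, and the genes called over the whole table from 660 to 1026 for the depots in AT and from 264 to 626 for the interaction. The replicate numbers shared by the groups were not used as pairs in the main fit. The correlation of deviations of same-numbered arrays was over 0.1 in 3 of 18 pairs (-0.28 to 0.159). With 3 arrays a group this cannot tell whether the samples were paired. With the replicate number as a block, 2 members were called between the depots in AT in place of 1, the added one being Gfra1 (adjusted p = 0.0385), and no other count of members changed by over 1.5 times. Of the 48 results of pathway genes named by rule, 36 kept their call in all settings. Gdnf was left out by the filter on dim genes, so that setting gave no value for it. With 3 arrays a group, the 95% interval of a Bdnf difference reached 0.26 to either side, which limits what could be seen.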
